A study of Mus musculus with 6 samples.

Results

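The adult hemoglobin genes Hba-a1, Hba-a2, Hbb-bs and Hbb-bt and the erythroid heme gene Alas2 were examined in mouse lung tumors after photodynamic treatment. They are 5 of the 21899 genes listed by the authors and were picked by symbol, with their levels in these tumors already known. Differences of the 5 genes between the groups are therefore given as a description and without a test.

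Lewis lung carcinoma cells that carry luciferase (LLC-luc) were grown under the skin of male C57BL/6 mice near the armpit, and pieces of the whole tumor were sequenced. The Laser group received irradiation and, by the methods of the study, saline. In the PC-La group the laser followed phycocyanin (PC), a blue pigment protein of Spirulina used as photosensitizer, and in the SePC-La group it followed selenium-enriched phycocyanin (SePC). By the labels, both agents were injected into the tumor. Each group had 2 samples, called a pair here. All tumors were irradiated, per the labels at 620 nm for 10 min and 4 h after an injection given every 5 days, so that the sequenced set has no tumor without laser. The methods of the study give another wavelength and a shorter interval. The mice were adult by the methods of the study, which give no age in weeks, and nothing says whether the samples of a group were separate mice. P-values then measure the spread between these samples, which may be technical.

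Hemoglobin is a tetramer of alpha and beta chains, each holding a heme group that binds oxygen. The alpha genes lie in a cluster with an embryonic gene, as do the beta genes, and adult red cells use Hba-a1 and Hba-a2 together with Hbb-bs and Hbb-bt. Alas2 encodes the erythroid form of 5-aminolevulinate synthase, which starts heme synthesis in mitochondria of developing red cells, whereas Alas1 does so in other cells. Reticulocytes, the young red cells of the circulation, have lost the nucleus but still hold globin mRNA.

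The RefSeq promoters of all 5 genes (genome build GRCm38.p6) are shown because the members moved together across the samples. Each line gives the 110 bases before the RefSeq start, 5′ to 3′ on the strand of the gene. Capitals mark the motifs CACCC (bound by Krüppel-like factors), GATAA (GATA factors), CCAAT and TATAA on either strand.
Hba-a1: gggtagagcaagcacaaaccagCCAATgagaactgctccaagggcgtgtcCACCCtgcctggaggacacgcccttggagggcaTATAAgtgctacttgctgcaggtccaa
Hba-a2: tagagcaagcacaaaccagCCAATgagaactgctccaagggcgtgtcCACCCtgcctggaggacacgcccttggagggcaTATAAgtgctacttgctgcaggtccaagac
Hbb-bs: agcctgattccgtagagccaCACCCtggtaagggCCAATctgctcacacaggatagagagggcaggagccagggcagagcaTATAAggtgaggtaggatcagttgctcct
Hbb-bt: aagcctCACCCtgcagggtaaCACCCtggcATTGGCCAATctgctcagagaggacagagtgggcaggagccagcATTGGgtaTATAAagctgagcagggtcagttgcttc
Alas2: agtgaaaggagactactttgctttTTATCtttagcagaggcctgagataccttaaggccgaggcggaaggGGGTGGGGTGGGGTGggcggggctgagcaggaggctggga

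These windows are chr11:32283562-32283671 for Hba-a1 and chr11:32296382-32296491 for Hba-a2, both on the plus strand, chr7:103827929-103828038 for Hbb-bs and chr7:103813924-103814033 for Hbb-bt, both on the minus strand, and chrX:150547307-150547416 for Alas2 on the plus strand. The gene spans given below come from another annotation (GENCODE), which starts each gene further upstream. By those spans, the windows of Hba-a1 and Hbb-bs lie wholly within the genes, and the other windows reach into theirs. The alpha promoters were one sequence. Shifted by 3 bases to the same start, Hba-a1 and Hba-a2 were identical at 247 of 247 bases upstream. Hbb-bs and Hbb-bt were identical at 51.0% of the compared bases at their best alignment without gaps.

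Within 250 bases before the start, each of the 5 genes held the CACCC motif, as well as a match to GATAA on either strand and one to TATAA. The matches of Hba-a1 and Hba-a2 are not separate, since their promoters are one sequence. GATAA lay 182 to 209 bases before the start in the globin genes, outside the lines above. In Alas2 it lay 86 bases before the start on the opposite strand. Of all 32851 promoters in the table, 52.0% held CACCC, 22.6% GATAA, 22.8% TATAA and 33.8% CCAAT on either strand. In Alas2 the 3 CACCC matches lay on the opposite strand, 40, 35 and 30 bases before the start, and CCAAT was not matched. Each globin gene had a TATAA on its own strand between 27 and 30 bases before the start, and Hbb-bt had another on the opposite strand 229 bases before it. The TATAA matches of Alas2 lay outside the lines above, 207 bases before the start and, on the opposite strand, 208 bases before it. A match of letters is not evidence of binding.

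Values are FPKM, which scale reads by exon length and by the total of each sample. Whole reads could be recovered from them, with totals of 14447792 to 17649489 reads per sample. A count of 0 allows up to 3 reads. Laser replicate 2 stood apart for skeletal muscle genes, so the globin differences from Laser are also given without it. In whole tumors, fewer red cells and less globin mRNA per red cell cannot be told apart.

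The 5 genes followed one order. Each was lowest in Laser, intermediate in PC-La and highest in SePC-La, and the 6 samples ranked alike for every member, namely Laser replicate 2, Laser replicate 1, PC-La replicate 1, PC-La replicate 2, SePC-La replicate 1 and SePC-La replicate 2. Among the 10853 genes that averaged 1 FPKM or more, 0.838% had groups that followed this order without overlap. Since the members were chosen from these values, nothing is read from that share. Summed over the 4 globin genes, FPKM was 126 and 12.9 in the Laser pair, 260 and 357 in the PC-La pair, and 608 and 923 in the SePC-La pair. These sums correspond to 1528 and 176 reads, 3133 and 4115 reads, and 6788 and 12429 reads.

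**Figure D1:**
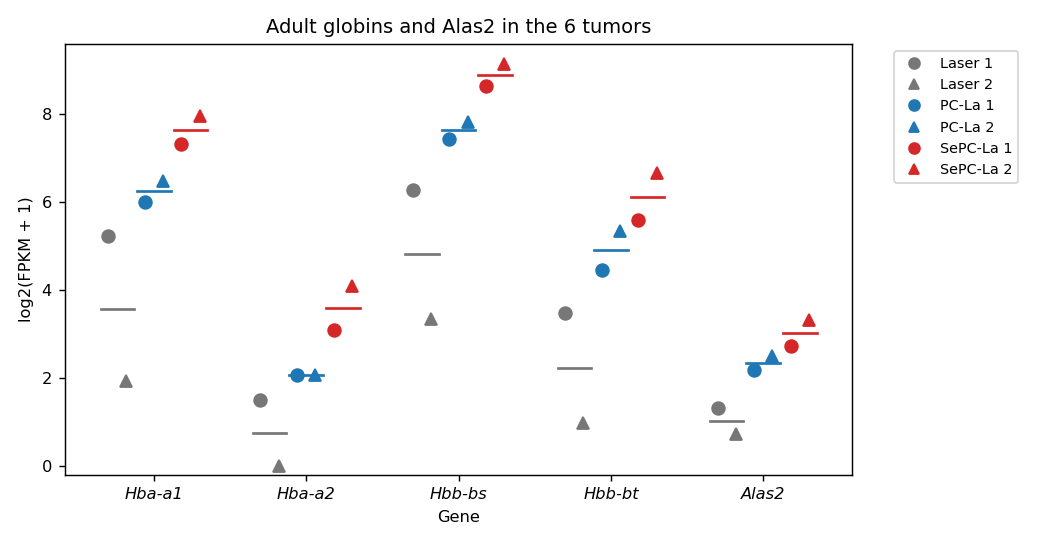
Levels of the 4 adult globin genes and Alas2 as log2(FPKM + 1) in each sample, with grey for Laser, blue for PC-La and red for SePC-La. Circles are replicate 1, triangles replicate 2 and bars group means. Both SePC-La samples lie above both PC-La samples, and these above both Laser samples, for each gene.

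Among the beta genes, Hbb-bs (ENSMUSG00000052305, chromosome 7 from 103826534 to 103828096 of GRCm38) was the more abundant. Hbb-bs had 76.96 and 9.15 FPKM in the Laser pair, 172 and 226 in the PC-La pair, and 395 and 562 in the SePC-La pair. It was the 466th and 5304th most abundant gene of the Laser samples and stood at rank 191 and 151 in PC-La and at rank 95 and 66 in SePC-La. Hbb-bt (ENSMUSG00000073940, chromosome 7 from 103812524 to 103813996) was read at 10.1 and 0.967 FPKM in the Laser pair, 21.03 and 39.5 in the PC-La pair, and 47.0 and 100.3 in the SePC-La pair. The groups did not overlap for either gene, but for Hbb-bt the lower SePC-La sample was only 1.19 times the higher PC-La sample.

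Of the alpha genes, Hba-a1 (ENSMUSG00000069919, chromosome 11 from 32283511 to 32284465) carried nearly all of the signal, at 36.7 and 2.79 FPKM in the Laser pair, 63.4 and 88.4 in the PC-La pair, and 158 and 246 in the SePC-La pair. Hba-a2 (ENSMUSG00000069917, chromosome 11 from 32296489 to 32297298) was read at 1.81 and 0 FPKM in the Laser pair, 3.17 and 3.21 in the PC-La pair, and 7.47 and 16.1 in the SePC-La pair. The 0 of Laser replicate 2 allows up to 0.255 FPKM of Hba-a2. The PC-La samples were nearly equal for this gene, at 33 and 32 reads, while the SePC-La samples had 72 and 188.

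Alas2 (ENSMUSG00000025270, chromosome X from 150547375 to 150570638) was far less abundant than the globins. Its FPKM was 1.48 and 0.660 in the Laser pair, 3.57 and 4.67 in the PC-La pair, and 5.59 and 8.94 in the SePC-La pair, from 56 and 28 reads, 134 and 168 reads, and 194 and 375 reads. The groups did not overlap. Exons of Apex2, a DNA repair gene on the other strand, cover 311 of the 2403 exon bases of Alas2, and whether strand was used in counting is not given in the sources used here. Apex2 itself lay between 1.49 and 2.76 FPKM in the 6 samples, with Laser at 1.99 and 2.17 and PC-La at 1.49 and 1.94. It did not follow the order of Alas2.

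As group means, the summed globins stood at 69.2 ± 79.7 FPKM for Laser, 308 ± 68.7 for PC-La and 766 ± 223 for SePC-La (SD, n = 2 each). The ratio of means to Laser was 4.45 for PC-La and 11.1 for SePC-La, and SePC-La was 2.48 times PC-La. The spread was uneven, since the Laser samples differed 9.73-fold and the samples of PC-La and SePC-La 1.37-fold and 1.52-fold. On the scale of log2(FPKM + 1), the within-group SD was 2.25 for Laser, 0.32 for PC-La and 0.43 for SePC-La.

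On that scale, PC-La exceeded Laser in summed globins by 2.86 (standard error 1.34, from the spread within all 3 groups). Leaving out Laser replicate 2 gave 1.27 and leaving out Laser replicate 1 gave 4.46, so its size rests on which Laser sample is kept. SePC-La exceeded Laser by 4.16 (standard error 1.34), or by 2.57 without Laser replicate 2 and 5.75 without Laser replicate 1. In both cases the groups stayed apart, as the lowest SePC-La sample was 4.84 times and the lowest PC-La sample 2.07 times the highest Laser sample.

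SePC-La exceeded PC-La by 1.297, which is less than the standard error of 1.34. That standard error is set mainly by the Laser pair. Set against the PC-La and SePC-La pairs alone, the lower SePC-La sample was 1.70 times the higher PC-La sample. With 2 samples a group, an exact permutation test of a single gene cannot give a two-sided p under 0.333.

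The mean of Alas2 was 1.07 ± 0.581 FPKM for Laser, 4.12 ± 0.780 for PC-La and 7.26 ± 2.37 for SePC-La (SD, n = 2 each). The ratio of means to Laser was 3.85 for PC-La and 6.78 for SePC-La. On the log2(FPKM + 1) scale, which understates changes of low genes, the differences from Laser were 1.33 and 1.99, and SePC-La stood 0.67 above PC-La (standard error 0.36 each). With a pseudocount of 0.1 the differences from Laser became 1.93 and 2.71. The lower SePC-La sample was 1.20 times the higher PC-La sample.

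All 5 genes had non-overlapping groups in each of the 3 comparisons. Of all genes tested, 42% had groups without overlap when PC-La was set against Laser, 40.6% when SePC-La was set against Laser, and 65.5% when SePC-La was set against PC-La. Counting only genes that were higher in the first-named group, the shares were 20.4%, 15% and 26%. As the choice of the members fixed their count, it is given here without a reading.

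The balance between gene copies was steadier than their levels. Alpha FPKM was 0.442 and 0.276 times beta FPKM in the Laser samples, 0.345 and 0.345 times in PC-La, and 0.374 and 0.395 times in SePC-La. The alpha share was lowest in Laser replicate 2, which had 40 alpha reads.

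Hbb-bt made up a part of the beta reads that differed between samples of the same group. In PC-La its share was 10.1% (95% exact binomial interval 8.86 to 11.4) and 13.8% (12.6 to 15.1), and in SePC-La 9.81% (8.99 to 10.7) and 14.0% (13.3 to 14.8). The Laser samples had 10.8% (8.94 to 12.8) and 8.82% (4.64 to 14.9). The samples of PC-La and of SePC-La thus differed within their groups beyond counting error, which is all that these intervals cover. The higher share was about the same in both groups. Counting of both beta genes is uncertain, because 54.8% of the 100-base windows of the Hbb-bt transcript also occur in Hbb-bs transcripts.

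Hba-a2 reads were 3.90% and 0% of the alpha reads in the Laser pair, 3.94% and 2.89% in the PC-La pair, and 3.74% and 5.12% in the SePC-La pair. With its 40 alpha reads, Laser replicate 2 allows a share of up to 8.81%. Of the 100-base windows of Hba-a2 transcripts, 79.5% also occur in Hba-a1 transcripts, and reads from such stretches cannot be assigned to a copy by their sequence. The split between Hba-a1 and Hba-a2 is therefore uncertain, and their sum is the firmer value.

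Alas2 reads per 1000 globin reads were 36.6 and 159 in the Laser pair, 42.8 and 40.8 in the PC-La pair, and 28.6 and 30.2 in the SePC-La pair. The value of Laser replicate 2 rests on 28 Alas2 reads and 176 globin reads and had an exact 95% interval of 103 to 238. Leaving that sample aside, the ratio stayed between 28.6 and 42.8 while the summed globin level varied from 126 to 923 FPKM. The ratio was lower in both SePC-La samples (intervals 24.7 to 33.0 and 27.2 to 33.4) than in both PC-La samples (35.7 to 50.9 and 34.8 to 47.6). These intervals cover counting error within a sample and not the spread between samples. Of all single genes tested, 65.5% had groups without overlap in this comparison. Both parts of the ratio are members chosen from these data, so no group difference is read from it. Against Alas1, the form used outside red cells, Alas2 FPKM was 0.228 and 0.0809 times in the Laser pair, 0.388 and 0.564 times in the PC-La pair, and 0.870 and 1.31 times in the SePC-La pair.

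**Figure D2:**
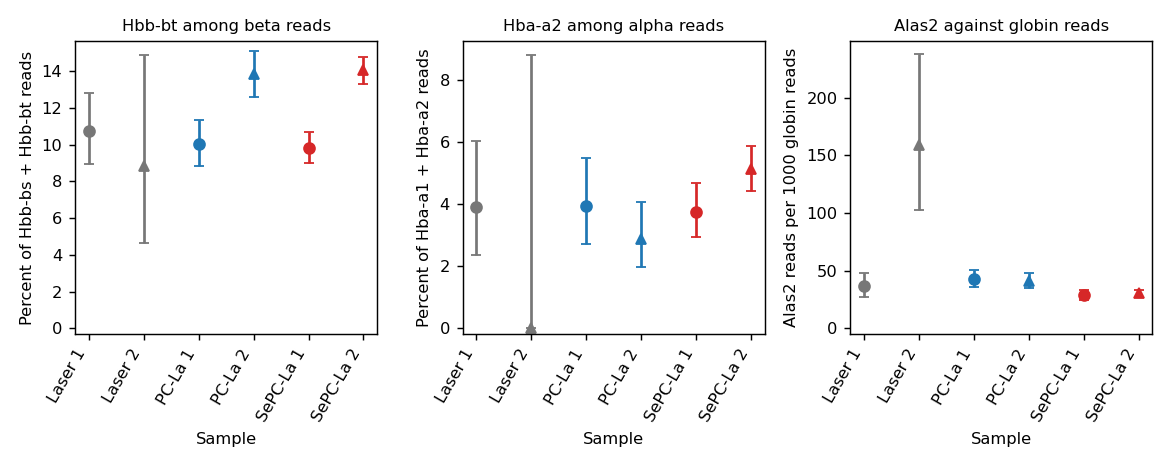
Shares of Hbb-bt in beta reads (left, percent), of Hba-a2 in alpha reads (middle, percent) and Alas2 reads per 1000 globin reads (right) in each sample. Bars are exact 95% binomial intervals that cover counting error only. Hbb-bt is near 14% in PC-La replicate 2 and SePC-La replicate 2, and the Alas2 ratio of Laser replicate 2 stands at 159 with a wide interval.

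Globins of the embryo were not detected. Hbb-bh1, Hbb-bh2 and Hbb-y, the embryonic beta-like genes, and Hba-x, the embryonic alpha-like gene, had 0 reads in all 6 samples. The theta globins Hbq1a and Hbq1b had at most 1 and 6 reads in a sample, and 6 of the 7 Hbq1b reads were in SePC-La replicate 2, the sample with the most adult globin.

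Other genes of the red cell lineage were then set beside the members, from lists of membrane and skeleton proteins, transcription factors, and cytosolic and maturation genes, 55 genes in all. Ahsp, the alpha globin chaperone, is not among the symbols used here. Of the other 54 genes, 25 reached a mean of 1 FPKM and were tested with limma. At an absolute log2 difference over 1 with an unadjusted p under 0.05, the criterion of the study, 0 passed in PC-La against Laser and 0 in SePC-La against Laser, where 1.29% (0.866% higher, 0.424% lower) and 0.682% (0.544% higher, 0.138% lower) of all tested genes did. In SePC-La against PC-La 1 gene was lower, where 2.98% of all tested genes passed (1.18% higher, 1.8% lower). No gene of the table had a Benjamini-Hochberg adjusted p under 0.05 from limma in any comparison, while 627, 1318 and 2637 genes (5.78%, 12.1% and 24.3%) had an unadjusted p under 0.05. The median log2 difference of the 25 genes was 0.07, 0.02 and -0.07 in the 3 comparisons, and that of all tested genes 0.00, -0.06 and -0.07. By list, the medians in the same order were 0.151, -0.238 and -0.455 for the 4 tested membrane and skeleton genes. They were -0.05, 0.245 and -0.16 for the 3 tested transcription factors, and 0.05, 0.07 and 0.01 for the 18 tested cytosolic and maturation genes.

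The genes of this set with the highest levels are not specific to red cells. Gpx1, a glutathione peroxidase, had 201 to 246 FPKM, Bnip3l, which clears mitochondria, 46.6 to 59.4, and Prdx2, a peroxiredoxin abundant in red cells, 46.8 to 61.2. None of these 3 met the criterion, and their log2 differences lay between -0.11 and 0.25. Slc25a37 (mitoferrin-1), which brings iron into mitochondria for heme synthesis, had 36.8 and 35.1 FPKM in the Laser pair, 27.3 and 33.1 in the PC-La pair, and 46.4 and 33.0 in the SePC-La pair, and the SePC-La samples overlapped with both other groups. Bpgm, which makes the 2,3-bisphosphoglycerate that regulates oxygen release, differed from Laser by 0.37 in PC-La and 0.40 in SePC-La, short of the criterion. The gene that was lower in SePC-La than in PC-La was Ypel4, at 0.503 and 1.16 FPKM against 3.72 and 2.81 FPKM. Its log2 difference of -1.23 (standard error 0.45, adjusted p = 0.181 from limma, and 0.0469 to 0.259 over the alternatives that called it) met the criterion, while the Laser samples had 2.80 and 0.4985 FPKM.

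**Figure D3:**
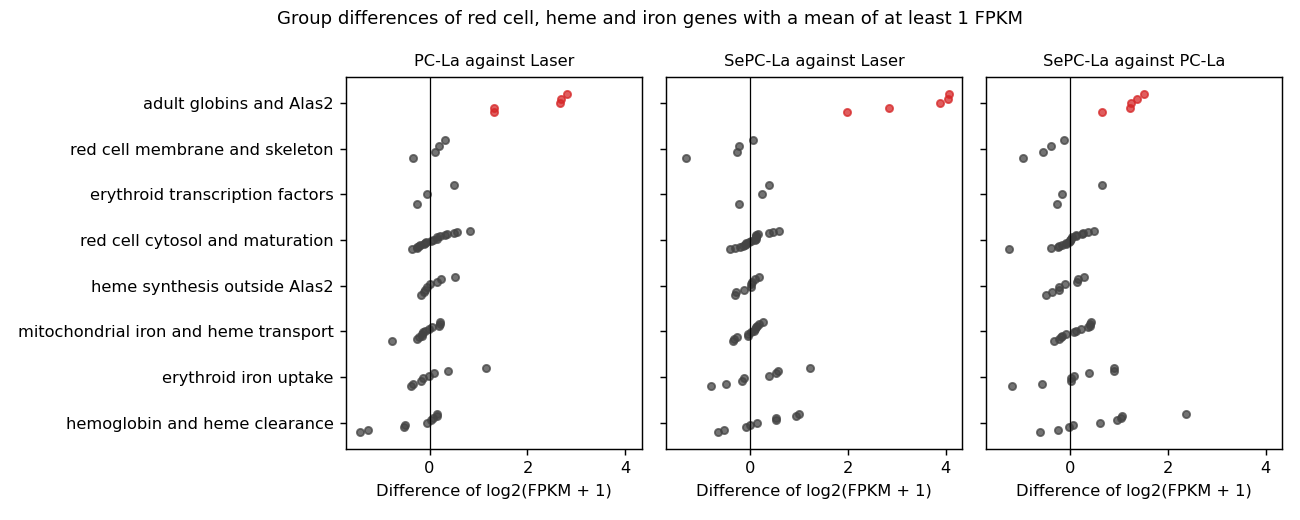
Differences of group means of log2(FPKM + 1) for the 4 adult globins and Alas2 (red) and for red cell, heme and iron genes that averaged 1 FPKM or more (grey), 1 point a gene, in 3 comparisons. Against Laser the red points lie between 1.32 and 4.07, and the grey points past 1 in size are Trf (1.15 and 1.23), Hmox1 (-1.43), Cd163 (-1.26) and Aqp1 (-1.29).

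The genes most specific to red cells lay below the filter and were counted as reads. The band 3 anion exchanger Slc4a1, the main membrane protein of red cells, had 3 and 0 reads in the Laser pair, 15 and 13 in the PC-La pair, and 23 and 30 in the SePC-La pair. Its groups did not overlap and followed the group order of the globins.

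Epb42, which anchors the membrane skeleton, had 12 reads in total, 7 of them in SePC-La replicate 2. This count is too low for a comparison of groups. The Rh-family gene Rhag had 5 and 2 reads in Laser and 2 reads in all 4 treated samples together.

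Transcription factors of red cell precursors differed widely in level. Gata1, the master regulator of the lineage, had 2 reads in Laser replicate 1, 2 in SePC-La replicate 1 and 0 elsewhere. Klf1, which activates adult beta globin, had 1 and 3 reads in the Laser pair, 10 and 5 in the PC-La pair, and 1 and 3 in the SePC-La pair, so it was not highest where globin was highest. Gfi1b had 1 read in all samples together. Tal1, which blood stem cells and endothelium also use, was detected in every sample, at 18 and 12 reads in the Laser pair, 16 and 20 in the PC-La pair, and 15 and 22 in the SePC-La pair. Nfe2, which megakaryocytes also use, had 20 and 40 reads in the Laser pair, 14 and 18 in the PC-La pair, and 45 and 35 in the SePC-La pair. For both genes the SePC-La and Laser samples overlapped. Bcl11a and Myb had at most 7 and 13 reads in a sample. Hemgn, a nuclear protein of erythroid precursors, had 8 reads, and Car1, a carbonic anhydrase of red cells, had 1. Of the factors also used by other cells, Ldb1, Lmo2 and Zfpm1 passed the filter and none met the criterion. Zfpm1, a partner of Gata1, differed by 0.66 between SePC-La and PC-La with an adjusted p of 0.138 from limma.

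**Figure D4:**
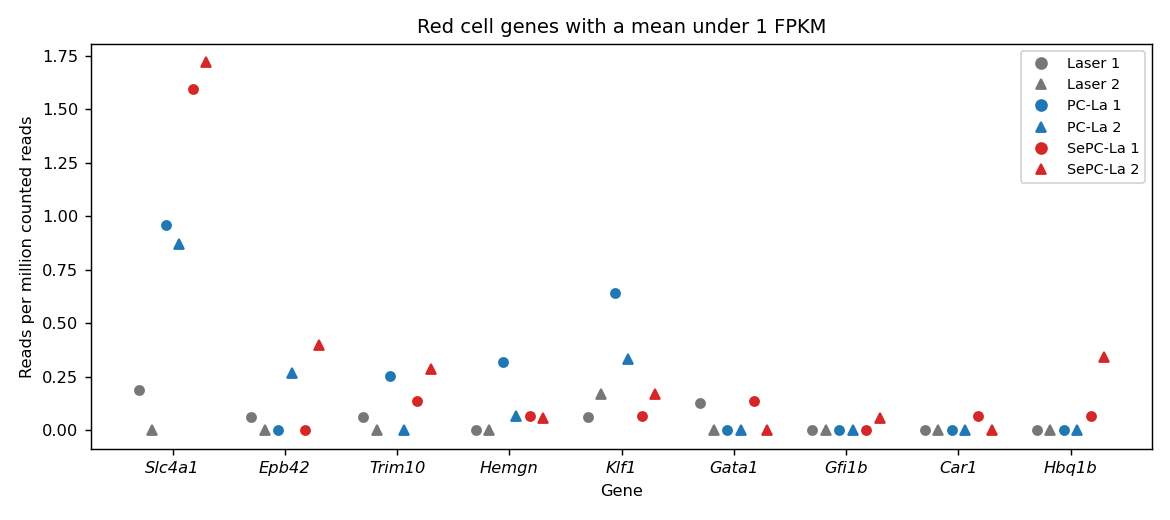
Reads of 9 red cell genes (mean under 1 FPKM), scaled to the total of each sample, with colors by group and symbols by replicate. The groups of Slc4a1 are ordered as those of the globins are, with 30 reads in SePC-La replicate 2, while Gata1, Gfi1b and Car1 stay at 2 reads or fewer.

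The other 8 genes of heme synthesis did not move with Alas2. None met the criterion in any comparison, and their median log2 difference was 0.04 in SePC-La against Laser, -0.02 in PC-La against Laser and -0.16 in SePC-La against PC-La. Alad, the second enzyme of the pathway, had 35.6 and 23.0 FPKM in the Laser pair, 31.2 and 32.4 in the PC-La pair, and 27.3 and 32.4 in the SePC-La pair, with overlapping groups. Fech, which inserts iron into the ring at the last step, had 5.37 and 6.88 FPKM in the Laser pair, 5.80 and 5.55 in the PC-La pair, and 4.02 and 5.54 in the SePC-La pair. Alas1 stood at 6.50 and 8.16, 9.19 and 8.29, and 6.42 and 6.80 FPKM, and was thus not highest where Alas2 was.

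Of 15 genes for iron and heme transport in mitochondria and out of the cell, 12 were tested and 0 met the criterion in each comparison. Flvcr1, a heme exporter, had 12.9 and 15.2 FPKM in the Laser pair, 8.42 and 7.40 in the PC-La pair, and 10.7 and 11.3 in the SePC-La pair. Its difference between PC-La and Laser was -0.76 (adjusted p = 0.43 from limma). Slc25a39 and Tmem14c, mitochondrial carriers with a role in heme synthesis, had 53.3 to 75.04 and 51.5 to 73.1 FPKM.

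Among 9 genes of iron uptake, 8 were tested. Trf, the plasma iron carrier transferrin, was the only one to meet the criterion, with 5.65 and 2.56 FPKM in the Laser pair, 9.35 and 10.2 in the PC-La pair, and 8.30 and 13.1 in the SePC-La pair. Its log2 difference was 1.15 in PC-La (adjusted p = 0.753 from limma) and 1.23 in SePC-La (adjusted p = 0.376). At the criterion, 0.866% of all tested genes were higher in PC-La and 0.544% in SePC-La against Laser. Tfrc, the transferrin receptor, which immature red cells need for iron, had 18.6 and 53.4 FPKM in the Laser pair, 36.7 and 46.7 in the PC-La pair, and 16.9 and 18.7 in the SePC-La pair. The log2 difference between SePC-La and PC-La was -1.17, which missed the criterion (unadjusted p = 0.0502 from limma). Tfrc and the globins did not share an order.

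Of 12 genes that clear hemoglobin and heme 9 were tested, and 2 rose in SePC-La against PC-La, 0 met the criterion in SePC-La against Laser and 1 fell in PC-La against Laser. In the same order, the shares of all tested genes were 1.18% (higher), 0.682% (either direction) and 0.424% (lower). Hmox1, heme oxygenase 1, had 265 and 117 FPKM in the Laser pair, 83.4 and 50.4 in the PC-La pair, and 369 and 315 in the SePC-La pair. PC-La was the lowest group for Hmox1, whereas it was intermediate for the globins. The log2 difference was -1.43 between PC-La and Laser (adjusted p = 0.753 from limma) and 2.38 between SePC-La and PC-La (adjusted p = 0.126). Slc48a1, a heme transporter of the lysosome, differed by 1.07 between SePC-La and PC-La (adjusted p = 0.126 from limma). Cd163, the hemoglobin scavenger receptor of macrophages, had 7.17 FPKM in Laser replicate 2 and 3.66 in SePC-La replicate 2 and between 0.279 and 0.9022 in the other 4 samples.

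Marker lists of other cells were set beside the globins, and their part in the globin differences was not tested. Platelets, which are cell fragments in the blood, did not follow the globin order. Their 14 markers summed to 78.4 and 92.6 FPKM in the Laser pair, 22.7 and 20.99 in the PC-La pair, and 93.3 and 148 in the SePC-La pair, with PC-La lowest. Most of this is Pf4 and Ppbp, platelet chemokine genes that macrophages can also express. Both fell in PC-La against Laser, with log2 differences of -2.02 and -2.10 and adjusted p of 0.406 and 0.43 from limma, and both rose in SePC-La against PC-La. Over all tested genes, 0.424% fell in the former comparison and 1.18% rose in the latter. Of the 14 markers 11 had a mean under 1 FPKM, and Gp1bb was at 0 throughout.

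No endothelial marker met the criterion. The 12 genes summed to 61.9 and 54.6 FPKM in the Laser pair, 63.5 and 80.6 in the PC-La pair, and 73.0 and 69.6 in the SePC-La pair, from 11 genes that were tested and 1 that was not. Cldn5, a tight junction protein of endothelium, had 3.68 and 7.32 FPKM in the Laser pair, 5.96 and 7.50 in the PC-La pair, and 10.8 and 10.5 in the SePC-La pair, a log2 difference of 0.90 between SePC-La and Laser (adjusted p = 0.376 from limma).

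Neutrophil markers summed to 161 and 34.6 FPKM in the Laser pair, 157 and 91.9 in the PC-La pair, and 338 and 464 in the SePC-La pair. Like the globins they were highest in SePC-La and lowest in Laser replicate 2, but PC-La and Laser overlapped. Of the 6 tested, S100a8, S100a9 and Retnlg rose in SePC-La against Laser at the criterion, by 2.21, 2.71 and 2.20 on the log2 scale, with adjusted p of 0.376, 0.396 and 0.382 from limma. S100a8 and Retnlg also rose against PC-La, and 0 changed in PC-La against Laser. Over all tested genes, 0.544% rose in SePC-La against Laser, 1.18% rose in SePC-La against PC-La, and 1.29% changed in PC-La against Laser. Mpo and Elane, which mark neutrophil precursors of the bone marrow, had mean levels under 1 FPKM, as had 6 of the 12 markers.

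The 8 macrophage markers summed to 700 and 745 FPKM in the Laser pair, 926 and 977 in the PC-La pair, and 452 and 792 in the SePC-La pair. C1qa and C1qc, complement genes, fell in SePC-La against PC-La by 1.01 each on the log2 scale (adjusted p = 0.155 and 0.151 from limma). At the criterion, 1.8% of all tested genes fell in SePC-La against PC-La. In that comparison 5 of the 8 markers were lower and 3 higher, the latter Cd14 (0.92), Cd68 (0.31) and Mrc1 (0.28). The markers thus had no common direction, and 0 met the criterion in both other comparisons. Skeletal muscle markers were opposite to the globins in the Laser group. They summed to 21.6 and 147 FPKM in the Laser pair, 2.51 and 2.61 in the PC-La pair, and 1.499 and 6.12 in the SePC-La pair, so that Laser replicate 2, with the lowest globin level, had the highest muscle level. Of the 7 muscle genes tested, 6 fell at the criterion in each comparison with Laser. Of all tested genes, 0.424% fell in PC-La and 0.138% in SePC-La against Laser. Genes such as Ckm, Myh4 and Myh1 passed the filter only through Laser, with 7.16, 14.6 and 13.3 FPKM in Laser replicate 2. Their selection thus favored a fall, and nothing is read from the count.

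**Figure D5:**
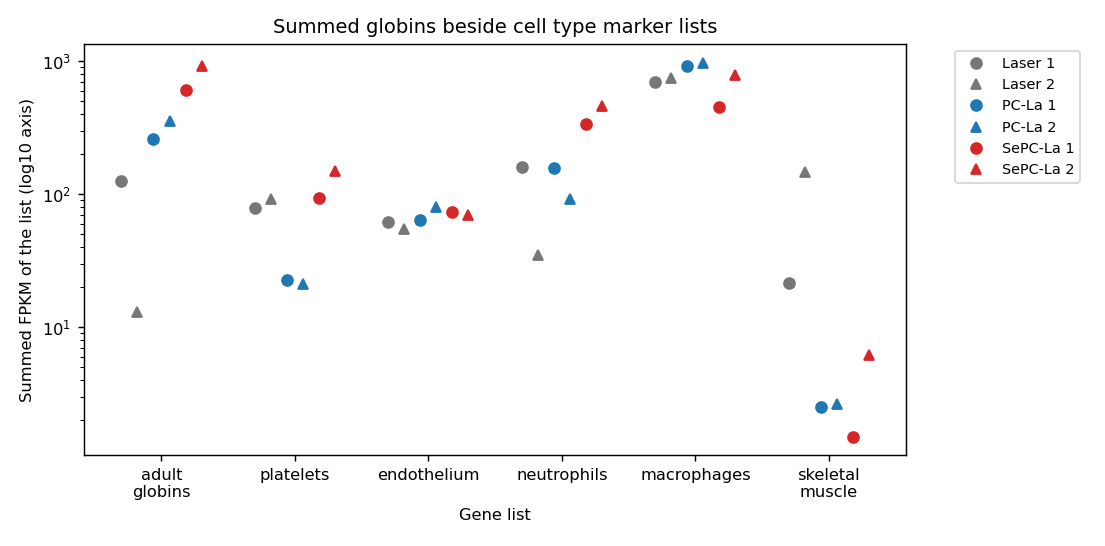
Summed FPKM, on a log10 axis, of the 4 adult globins and of 5 marker lists in each sample, with colors by group and symbols by replicate. Globins run from 12.9 in Laser replicate 2 to 923 in SePC-La replicate 2, platelet markers are lowest in PC-La, and muscle markers reach 147 in Laser replicate 2.

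The members varied together. Across the 6 samples, Pearson's r of log2(FPKM + 1) between pairs of members ran from 0.945 to 0.998 over 10 pairs. As the members were chosen with these levels known and the globin copies share sequence, nothing is read from these values. Outside the members, the 10 genes with the highest r with the summed globins were Ppie, Arid5a, Icam2, Cdc45, Nmral1, Atp5k, Rgs16, Areg, Il11 and Tnfrsf1a, at r from 0.993 down to 0.975. Their range was far smaller than that of the globins. Ppie, for example, lay between 9.62 and 13.8 FPKM, and Areg, a growth factor of the EGF family and one of the wider ranges, between 10.1 and 41.7. The 5 genes most like Alas2 included Ifitm3, H2-K1, Icam2 and Ctsz, and r of the 5 ran from 0.993 to 0.982. Icam2, an adhesion molecule of endothelium and blood cells, was in both sets, at 1.91 and 1.40 FPKM in the Laser pair, 2.25 and 2.49 in the PC-La pair, and 2.54 and 2.95 in the SePC-La pair. These correlations rest on 6 samples that share libraries and groups and were picked as the highest of 10853 genes. Below the filter, r with the summed globins was 0.911 for Slc4a1.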

How the data were processed

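RNA of 6 tumor samples was sequenced on an Illumina HiSeq. The authors deposited 1 table of FPKM values, and the unit was settled from the values. The submitters' processing notes name HISAT2 2.0.5, HTSeq 0.9.1, DESeq 1.30.0 and the build mm9, without their roles. Multiplied by merged exon lengths of GENCODE M21 (GRCm38), all 6 values were whole reads within 0.05 for 97.91% of expressed genes, so GRCm38 coordinates are given from that annotation. The read length and the treatment of reads that match several places are not given in the sources used here.

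Levels are the deposited FPKM without further scaling. Group differences were fitted by limma (3.58.1, under R 4.3.3) to log2(FPKM + 1) of the 10853 genes that averaged 1 FPKM or more, with all 6 samples in one fit with 1 mean per group, trend and robust estimation, and Benjamini-Hochberg adjustment over all genes. Near-identical globin copies were also summed. Intervals are exact binomial intervals of recovered reads and cover counting error only. A count of 0 was taken to allow 3 reads. Promoters are from RefSeq (GRCm38.p6), where all 5 genes matched.

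The members, and with them the gene lists (embryonic and theta globins, non-erythroid globins, red cell membrane, erythroid transcription factors, red cell cytosol, heme synthesis, mitochondrial iron transport, iron uptake, heme clearance, platelets, endothelium, neutrophils, macrophages and skeletal muscle), were chosen with earlier results of these data known. Named genes are the members, genes of these lists that met the criterion or were abundant, and the 10 and 5 genes with the highest correlation with the summed globins and Alas2. Genes with few reads, and others that missed the criterion, were named after their values were seen. Some genes of these lists and of the correlated genes are not reported here. The code was tested on simulated data. Python 3.11.15, NumPy 2.4.6, pandas 2.3.3, SciPy 1.17.1 and matplotlib 3.10.9 were used.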

Additional observations from a re-analysis of the deposited data

How the results depend on the processing

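The globin sum, its single copies and Alas2 were higher in the first-named group in all 84 alternative values over the 3 comparisons. The members were chosen from these data and their groups did not overlap, so leaving out a sample could not change the sign. Some alternatives also repeat the main value by construction, so nothing is read from that count. Alas2 moved with a pseudocount of 0.1 to 2.71 for SePC-La against Laser and 1.93 for PC-La against Laser, and with limma voom on the recovered reads, an alternative chosen after seeing the data, to 2.82 and 2.03. The smaller pseudocount shrinks low genes less. Taken alone, Hba-a2 gave 1.32 for PC-La against Laser in place of the 2.86 of the sum. With each sample left out, the sum ran from 2.57 to 5.75, from 1.27 to 4.46, and from 1.00 to 1.60 for SePC-La against Laser, PC-La against Laser and SePC-La against PC-La, and Alas2 from 1.70 to 2.29, from 1.04 to 1.62, and from 0.37 to 0.97.

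Genes called at the criterion numbered 74, 140 and 323 in the same order. A pseudocount of 0.1 gave 129 for SePC-La against Laser and 488 for SePC-La against PC-La, a minimum of 5 FPKM gave 46, 68 and 186 (fewer genes tested), and voom gave 135 and 222 for the comparisons with Laser. With each sample left out they ran from 60 to 255, from 69 to 660, and from 172 to 590. A lone sample is then assumed to vary like the other groups. Counts against Laser were 255 and 660 without Laser replicate 1, 210 and 79 without Laser replicate 2, 69 for PC-La without PC-La replicate 2, and 154 for SePC-La without SePC-La replicate 2. Those for SePC-La against PC-La were 211 without PC-La replicate 1, 172 without SePC-La replicate 1 and 590 without SePC-La replicate 2. Apart from the fewer samples, the cause was not tested.

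Of the 25 erythroid genes tested, 0, 0 and 1 were called. For SePC-La against Laser 1 was called without the filter, without trend and robust estimation (Aqp1, a water channel, lower in SePC-La) and with a replicate block (Aqp1). For SePC-La against PC-La 0 were called at a minimum of 5 FPKM. With samples left out these counts ran from 0 to 1 in each comparison. Ypel4 lost its call in SePC-La against PC-La when any sample of these 2 groups was left out. Aqp1 was called without SePC-La replicate 2, against Laser as well as against PC-La, and Ypel4 in PC-La against Laser without Laser replicate 1 and in SePC-La against Laser without Laser replicate 2.

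The numbers 1 and 2 are labels only. Between groups, the deviations of same-numbered samples correlated at 0.086, -0.428 and -0.177 across genes. With the replicate block, 81, 133 and 285 genes were called and the differences of the globin sum (4.16, 2.86 and 1.297) were the same by construction.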

Other observations

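Globins outside the red cell lineage did not follow the adult hemoglobin genes. Cygb, cytoglobin, a globin of fibroblast-like cells, had 3.002 and 0.559 FPKM in the Laser pair, 3.38 and 2.41 in the PC-La pair, and 0.5345 and 1.06 in the SePC-La pair. Of the 4 genes of this list it was the only one that averaged 1 FPKM or more. It fell in SePC-La against PC-La by 1.12 on the log2 scale (adjusted p = 0.203 from limma) and did not meet the criterion against Laser. Mb, the myoglobin of muscle, had 1 and 7 reads in Laser and at most 2 in any other sample. The brain globin Ngb and Adgb, a globin of the testis, had at most 11 and 20 reads in a sample.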
